A study of Mus musculus with 8 samples.

Results

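The 9 genes described here, of the lipid droplet surface and its first lipase, were followed in pancreatic islets: 3 CIDE genes (Cidea, Cideb, Cidec), 4 perilipins (Plin1, Plin2, Plin3, Plin4), the lipase gene Pnpla2 and its inhibitor G0s2. A gene was represented by the probe set that names it alone and has the highest mean over all arrays, a choice that uses no group. Of the 9 genes, 8 had such a probe set among 18193 genes in all, and the expression of Plin1 was not analysed here. Cideb and Cidec had a mean log2 expression under 5.27, the 40th percentile of all probe sets below which genes were left out of the tests, so 6 of the 13369 tested genes belong to the set. The set was chosen by gene family around Cidea, and Cidea was selected on its log2 difference between untreated Irs2-/- and wild-type islets, which was already known. That difference, and the tungstate differences that share its Irs2-/- arrays, are therefore given for Cidea as a description with no p-value.

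The islets came from male C57Bl/6 mice, either wild type (WT) or without insulin receptor substrate 2 (Irs2-/-), an adaptor protein of the insulin and IGF receptors. The groups, of 2 arrays each, were: Irs2-/- treated, Irs2-/- Control, WT treated and WT Control. Treated mice drank sodium tungstate, an oral glucose-lowering salt, over 21 days that began at 10 weeks of age, and islets were taken at 13 weeks. Control mice drank distilled water. The dose is not settled here, since the design text has 2 mg/ml and the sample labels have 2 mg/dl. Nothing used here says if an array stands for 1 mouse or several pooled mice. P-values therefore reflect how far the 2 samples of a group lie apart, which may be partly technical.

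Fat is stored in cells as droplets of triglyceride under a single phospholipid layer. Perilipins coat that layer and hold lipases back, and CIDE proteins sit where droplets touch and pass lipid from the smaller to the larger droplet. The lipase ATGL, the product of Pnpla2, takes the first fatty acid off a triglyceride, with the protein of Abhd5 as its co-activator and that of G0s2 as its inhibitor. In beta cells Plin2 is the best known droplet coat, while Plin1, Cidec and, in brown fat, Cidea are known from adipocytes.

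Irs2 read 4.78 and 4.86 on the Irs2-/- treated and 4.54 and 4.89 on the Irs2-/- Control arrays, against 7.89 and 7.61 on the WT treated and 7.91 and 7.73 on the WT Control arrays (log2 expression), so all 8 arrays followed their genotype labels. Islet hormone genes were high on every array, with Ins2 between 14.72 and 14.75 and Gcg between 14.15 and 14.39. One array stood apart by 2 of 10 adipocyte markers. On Irs2-/- Control replicate 2 Adipoq, the hormone adiponectin, read 8.37 and Car3 9.29, against at most 4.59 and 5.37 on the other arrays. None of the other adipocyte markers exceeded the other arrays there by more than 0.45. The mean level of 10 acinar markers was 11.29 and 12.05 on the Irs2-/- treated, 11.42 and 12.31 on the Irs2-/- Control, 10.49 and 10.67 on the WT treated, and 9.10 and 11.95 on the WT Control arrays. WT Control replicate 1 was thus the lowest, with the acinar gene Prss2 at 9.66 against 13.39 on replicate 2. For these outlying marker levels, WT Control replicate 1 and Irs2-/- Control replicate 2 are left out together in an alternative below. Whole islets were measured, in which more cells of a type and more RNA per cell cannot be told apart.

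Cidea was by far the most variable gene of the set, and its high values lay on Irs2-/- arrays alone. It read 8.01 and 5.86 on the Irs2-/- treated arrays and 9.46 and 9.76 on the Irs2-/- Control arrays, against 4.99 and 4.77 on the WT treated and 4.92 and 5.05 on the WT Control arrays. All 4 Irs2-/- arrays lay above all 4 WT arrays, and 9.55% of the tested genes were ordered that way. The WT readings lie under the level used to filter genes, so a fold against them is no exact measure of size.

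In untreated islets Cidea averaged 9.61 ± 0.21 in Irs2-/- Control and 4.98 ± 0.10 in WT Control (SD, n = 2 each). The difference of 4.62 ± 0.56 (log2 ± SE, SE pooled over the 4 groups in limma) ranked 6 from the top of 13369 genes. Under tungstate it averaged 6.94 ± 1.52 in Irs2-/- treated and 4.88 ± 0.16 in WT treated islets (SD, n = 2 each). These arrays are not those in which the gene was picked, and the difference of 2.06 ± 0.56 (95% interval 0.76 to 3.35) did not pass the test across all genes (limma adjusted p = 0.119, unadjusted p = 0.00639). Cidea passed the filter only through its Irs2-/- readings, since its WT readings lie under the filter level. The p-value between treated genotypes is therefore no fresh test. The size of the difference depended on the spread between the treated Irs2-/- arrays: it was 3.13 without Irs2-/- treated replicate 2 and 0.98 without replicate 1.

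Tungstate went with a lower Cidea level in Irs2-/- islets. Both Irs2-/- treated arrays lay below both Irs2-/- Control arrays, as did 22.9% of tested genes, and the difference was -2.67 ± 0.56 (log2 ± SE). It was -1.60 without Irs2-/- treated replicate 2 and -3.74 without replicate 1. In wild-type islets the treated and Control arrays overlapped (-0.10 ± 0.56, limma adjusted p = 1). The difference between these tungstate differences was -2.57 ± 0.79. The Irs2-/- Control arrays enter 3 of these comparisons, so the values are not independent of each other.

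**Figure D1:**
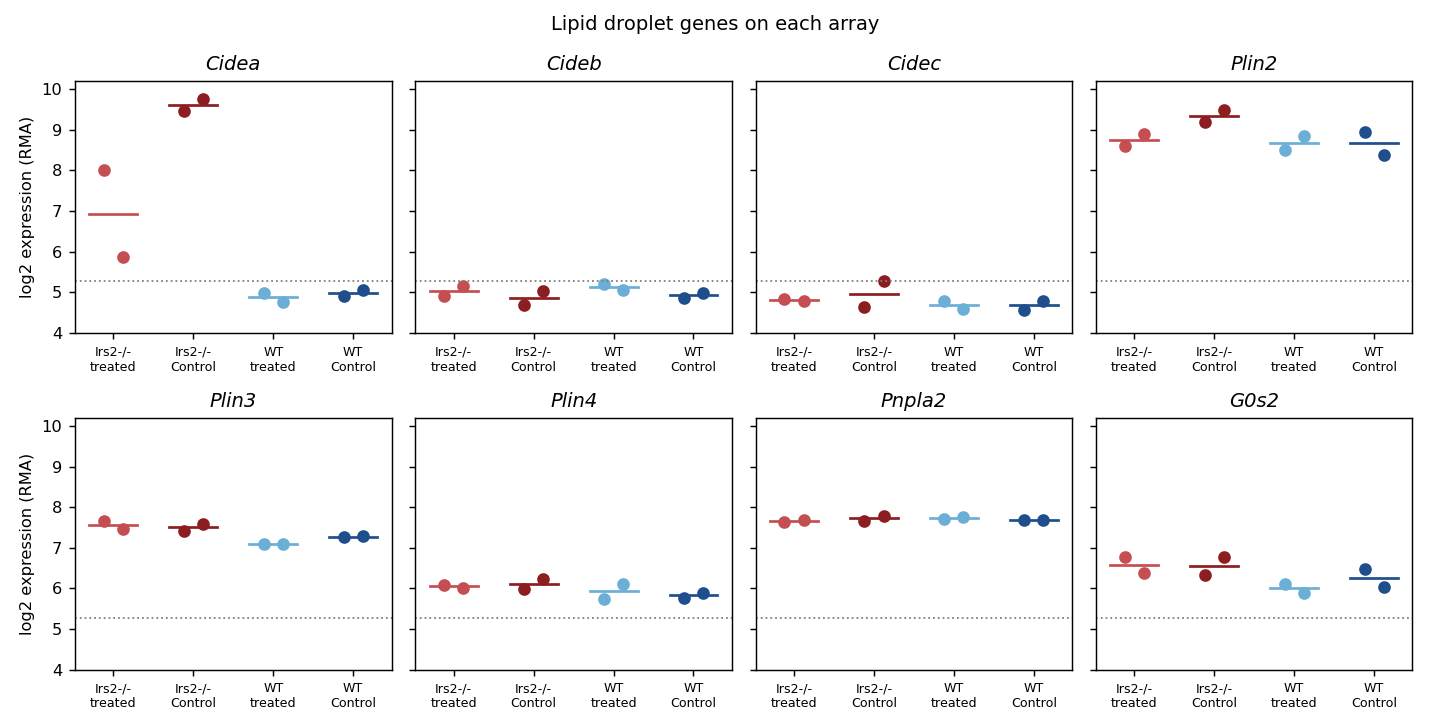
Log2 expression of the 8 measured lipid droplet genes on each array (points) with group means (bars), 2 arrays per group, and the filter level of 5.27 as a dotted line. Cidea lies between 5.86 and 9.76 on the Irs2-/- arrays and at 5.05 or less on the WT arrays, while Cideb and Cidec stay near or under the dotted line and the other 5 genes vary by at most 1.11.

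The other CIDE genes did not share this pattern. Cideb, known from liver, where its protein acts on lipoproteins and droplets, read 4.91 and 5.16 on the Irs2-/- treated, 4.69 and 5.04 on the Irs2-/- Control, 5.20 and 5.06 on the WT treated, and 4.87 and 4.98 on the WT Control arrays. Its genotypes overlapped in untreated islets, and its whole range over 8 arrays was 0.52. Cidec, which makes the large single droplet of white fat cells, read 4.83 and 4.78 on the Irs2-/- treated, 4.63 and 5.27 on the Irs2-/- Control, 4.78 and 4.58 on the WT treated, and 4.57 and 4.79 on the WT Control arrays. Its highest reading was on Irs2-/- Control replicate 2, the array with high Adipoq and Car3. With no filter on the mean, neither gene passed in any of the 5 comparisons (18193 genes in limma, lowest adjusted p 0.689 for Cideb and 0.45 for Cidec).

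The promoters of the members at both ends of G or C share, not of CG number, are shown to set a low-reading gene beside one that passed the filter. They are the 250 bases before the RefSeq start (GRCm38.p6), with every CG in capitals, and Cidea is not shown. The Cideb window is chr14:55758425-55758674, minus strand, and the G0s2 window is chr1:193273189-193273438, minus strand.
Cideb: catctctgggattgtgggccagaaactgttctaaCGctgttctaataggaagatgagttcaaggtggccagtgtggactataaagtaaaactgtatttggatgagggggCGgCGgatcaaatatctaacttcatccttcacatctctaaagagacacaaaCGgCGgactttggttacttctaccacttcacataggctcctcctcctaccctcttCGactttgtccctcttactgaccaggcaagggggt
G0s2: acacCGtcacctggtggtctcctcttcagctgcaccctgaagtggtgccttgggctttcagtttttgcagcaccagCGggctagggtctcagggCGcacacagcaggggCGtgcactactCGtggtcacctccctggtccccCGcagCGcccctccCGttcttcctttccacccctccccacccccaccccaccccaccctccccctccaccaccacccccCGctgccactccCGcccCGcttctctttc

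The G0s2 window was 67.2% G or C and held 11 CG pairs, and the Cideb window was 47.2% G or C and held 6. Plin2, Plin3, Plin4 and Pnpla2, which also passed the filter, had 61.6%, 60%, 65.2% and 63.2%, and the 2 windows of Cidec had 52.8% and 56.8%. They held 6, 7, 6 and 12 CG pairs, and the Cidec windows 4 and 6, so CG number did not part the members by the filter. The Plin1 window had 54% and 1 CG pair. Over all genes with a promoter in the table, the median was 59.6% for 10765 genes above the filter and 50.8% for 3687 below it. The median number of CG pairs was 15 above the filter and 4 below it. Motifs were searched on both strands of the windows of 8 members. A direct repeat of AGGTCA with any 1 base between, the element that PPAR receptors are known to bind, was in none of them, and 0.0335% of 32851 windows hold it. AGGTCA on its own, which every such repeat contains, was in the Plin2 window alone, and 14% of all windows hold it. TATAAA was in the Cideb window alone (12.4% of all windows), and CACGTG in none (6.02%). A missing match says only that these letters are not in the window.

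Among the perilipins, Plin2, the coat of cytosolic droplets in most cells, was highest in untreated Irs2-/- islets. It read 8.61 and 8.90 on the Irs2-/- treated and 9.18 and 9.49 on the Irs2-/- Control arrays, against 8.50 and 8.85 on the WT treated and 8.95 and 8.38 on the WT Control arrays. The Irs2-/- Control arrays lay above all others, and the 2 WT Control arrays lay apart by nearly as much as the group means did. The genotype difference was 0.67 ± 0.22 on plain water (1.59-fold, limma adjusted p = 0.0775) and 0.08 ± 0.22 under tungstate (limma adjusted p = 0.907). The tungstate difference in Irs2-/- islets was -0.58 ± 0.22 (limma adjusted p = 0.317) and that in wild-type islets 0.01 ± 0.22 (limma adjusted p = 1). The untreated genotype difference was 0.38 without WT Control replicate 2 and 0.96 without replicate 1, so its size depends on that group's arrays.

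Plin3, a coat protein that moves between the cytosol and new droplets, was higher on every Irs2-/- array than on any WT array, by little. It read 7.65 and 7.47 on the Irs2-/- treated and 7.41 and 7.59 on the Irs2-/- Control arrays, against 7.09 and 7.10 on the WT treated and 7.26 and 7.29 on the WT Control arrays. The genotype difference was 0.47 ± 0.12 under tungstate (1.38-fold, 95% interval 0.19 to 0.74, limma adjusted p = 0.104) and 0.22 ± 0.12 on plain water (limma adjusted p = 0.233). Cidea, chosen on its untreated arrays, and Plin3 were the members with all Irs2-/- arrays above all WT arrays, as were 9.55% of all tested genes.

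Plin4, the perilipin of adipocytes and muscle, read 6.09 and 6.02 on the Irs2-/- treated and 5.98 and 6.24 on the Irs2-/- Control arrays, against 5.73 and 6.12 on the WT treated and 5.76 and 5.90 on the WT Control arrays. Its genotype difference was 0.28 ± 0.16 on plain water (limma adjusted p = 0.263), with arrays that did not overlap, and 0.13 ± 0.16 under tungstate (limma adjusted p = 0.768), with arrays that did. Plin5, the perilipin of cells that burn fat and no member of the set, read 4.61 to 5.11 on all arrays and was below the filter. Plin3 and Plin4 lie on the same chromosome, at chr17:56278962-56290511 and chr17:56100587-56109948 (GRCm38.p6).

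Pnpla2, which encodes the lipase ATGL, was the steadiest member, between 7.64 and 7.79 on all 8 arrays. It averaged 7.67 ± 0.04 in Irs2-/- treated, 7.73 ± 0.08 in Irs2-/- Control, 7.73 ± 0.04 in WT treated and 7.68 ± 0.01 in WT Control islets (SD, n = 2 each). The genotype difference was 0.05 on plain water (95% interval -0.20 to 0.29) and -0.06 under tungstate (-0.31 to 0.18), which bounds any change at this precision. A dimmer probe set of the same gene read 4.75 to 5.04.

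G0s2, the inhibitor of ATGL, read 6.78 and 6.39 on the Irs2-/- treated and 6.32 and 6.77 on the Irs2-/- Control arrays, against 6.11 and 5.90 on the WT treated and 6.49 and 6.03 on the WT Control arrays. The genotypes did not overlap under tungstate and did overlap on plain water. The differences were 0.58 ± 0.22 (limma adjusted p = 0.248) and 0.28 ± 0.22 (limma adjusted p = 0.423) in that order.

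**Figure D2:**
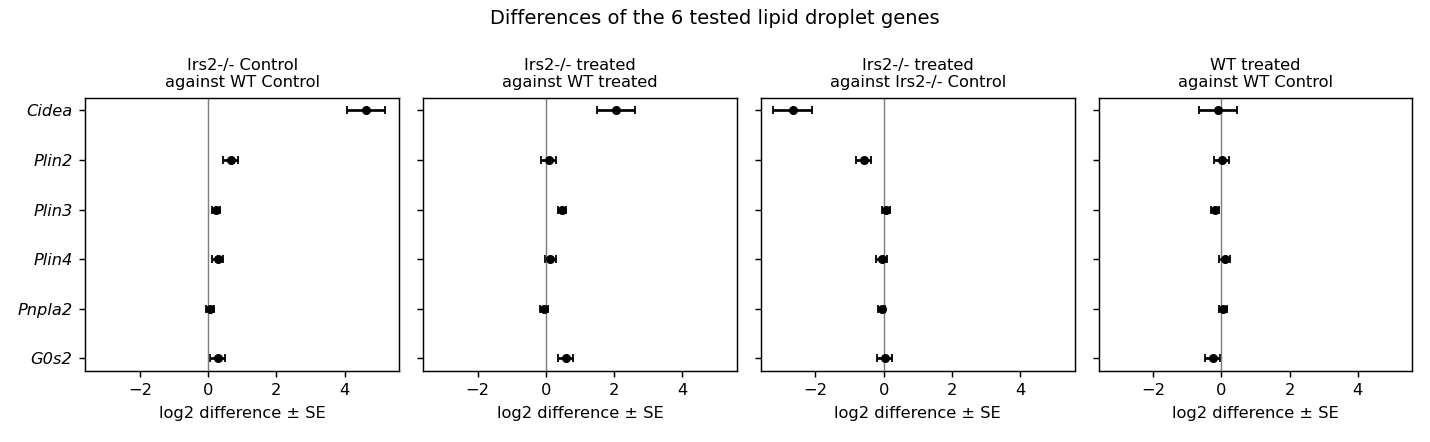
Log2 differences (points) with the SE of limma's fit (bars) for the 6 tested members in 4 comparisons, each panel giving the first-named minus the second-named group over 2 arrays per group. Cidea stands at 4.62, 2.06, -2.67 and -0.10, while the other 5 genes lie between -0.58 and 0.67.

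Counted together, 1 of the 6 tested members, Cidea, passed in untreated islets (higher in Irs2-/- Control) and 0 were lower past the test, against 16.8% of all tested genes (8.27% higher and 8.52% lower). Since Cidea was picked with that contrast known, nothing is read from the count. Cidea did not pass between treated genotypes, and of the other 5 members 0 passed limma's test in any of the 5 comparisons. The share of all tested genes that passed in the comparisons other than that of the untreated genotypes was 1.02% for Irs2-/- treated against WT treated (0.636% higher, 0.389% lower), 0.494% for tungstate in Irs2-/- islets, 0% for tungstate in WT islets and 0.0224% for the difference between the tungstate differences. At an unadjusted p under 0.05 the 5 members other than Cidea gave Plin2 between untreated genotypes, Plin3 and G0s2 between treated genotypes, Plin2 for tungstate in Irs2-/- islets, and 0 genes in the last 2 comparisons. Over all tested genes 4440, 2147, 1780, 364 and 862 were under it in the 5 comparisons. The median log2 difference of the 5 was 0.28 between untreated genotypes and 0.13 between treated genotypes, beside -0.01 over all tested genes for each. In untreated islets 4 of the 6, Cidea, Plin2, Plin3 and Plin4, were higher without overlap of the arrays (28.9% of all tested genes). In the same comparison 0 were lower (31.7%). Under tungstate 3, Cidea, Plin3 and G0s2, were higher (22.4%) and Pnpla2 was lower (25.7%). For tungstate in Irs2-/- islets 0 were higher (17.6%), and Cidea and Plin2 were lower (22.9%). Cidea was chosen on its untreated difference and passed the filter only through its Irs2-/- readings, so nothing is read from its part in these counts. For tungstate in WT islets Pnpla2 was higher (15.2%) and Plin3 lower (21.9%).

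Adipocyte markers did not move together on Irs2-/- arrays. Of the 10 with a probe set, 3 and 6 lay above the highest WT array on Irs2-/- treated replicates 1 and 2, and 2 and 6 did on Irs2-/- Control replicates 1 and 2. On Irs2-/- treated replicate 2 some were barely above it: Lep at 5.02 against 4.99, Adipoq at 4.55 against 4.49 and Car3 at 5.37 against 5.27. The share of all genes above the highest WT array on a single array was not counted. Fabp4 was the 1 marker of the 10 above the highest WT array on all 4 Irs2-/- arrays, as were Cidea and 9.55% of all tested genes. Aqp7, below the filter, was lower on all 4, at 4.31 to 4.45 against 4.49 to 4.54 on the WT arrays. The share of all genes lower in this way was not counted. Lpl read 10.58 and 11.21 on the Irs2-/- Control against 11.70 and 11.55 on the WT Control arrays. Pparg differed by -0.25 between untreated and -0.31 between treated genotypes, and neither Lpl nor Pparg passed limma's test. Relative to the mean of the WT arrays, Fabp4 stood at 2.35 and 1.76 on the Irs2-/- treated and 1.44 and 2.80 on the Irs2-/- Control arrays, and Cidea at 3.08 and 0.93 and at 4.53 and 4.82. Adipoq stood at -0.13 and 0.18 on the Irs2-/- treated and 0.22 and 4.00 on the Irs2-/- Control arrays, and Car3 at -0.08 and 0.17 and at -0.13 and 4.09. The mean of the adipocyte list was 6.38 and 6.46 on the Irs2-/- treated, 6.26 and 7.42 on the Irs2-/- Control, 6.21 and 6.21 on the WT treated, and 6.24 and 6.27 on the WT Control arrays. The part of fat cells in the Cidea difference was not tested, and its value without Irs2-/- Control replicate 2 was 4.48.

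Most brown adipocyte markers were low: Ucp1, the heat-making uncoupling protein, read between 4.69 and 5.12, and 5 of the 8 brown markers were below the filter. The 3 that passed it reached 6.41 (Ppargc1a), 5.88 (Prdm16) and 5.71 (Dio2). On Irs2-/- treated replicate 2, Ucp1 (5.12 against 5.01) and Prdm16 (5.88 against 5.85) lay barely above the highest WT array. On each other Irs2-/- array 0 of the 8 lay above it. The mean of the 8 brown markers was 4.85 and 5.00 on the Irs2-/- treated, 4.74 and 4.84 on the Irs2-/- Control, 4.90 and 4.92 on the WT treated, and 4.95 and 4.76 on the WT Control arrays. Macrophage markers were higher in untreated Irs2-/- islets, where 11 of 11 tested rose, beside 8.27% of all tested genes. Of 12 markers, 8 and 11 lay above the highest WT array on Irs2-/- treated replicates 1 and 2, and 12 did on each Irs2-/- Control array. The share of all genes that did so on a single array was not counted. On all 4 Irs2-/- arrays 7 of the 12 markers lay above the WT arrays, beside 9.55% of all tested genes. Their list mean was 7.24 and 7.31 on the Irs2-/- treated, 8.25 and 8.47 on the Irs2-/- Control, 6.95 and 6.91 on the WT treated, and 7.08 and 6.88 on the WT Control arrays. Their part in the Cidea difference was not tested. Of 9 beta cell markers 3 did not pass between untreated genotypes. Ins2 averaged 14.73 in Irs2-/- Control and 14.75 in WT Control islets, and Iapp 14.54 and 14.50. Over all arrays Ins2 read 14.72 to 14.75 and Iapp 14.50 to 14.55. Whether readings this high can show a change was not tested. Past the test 6 of the 9 fell in untreated Irs2-/- islets, beside 8.52% of all tested genes. Among them Slc2a2, the glucose transporter of beta cells, read 11.17 and 12.43 on the Irs2-/- treated and 10.58 and 11.03 on the Irs2-/- Control arrays, against 13.26 and 13.00 on the WT treated and 13.24 and 12.97 on the WT Control arrays.

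**Figure D3:**
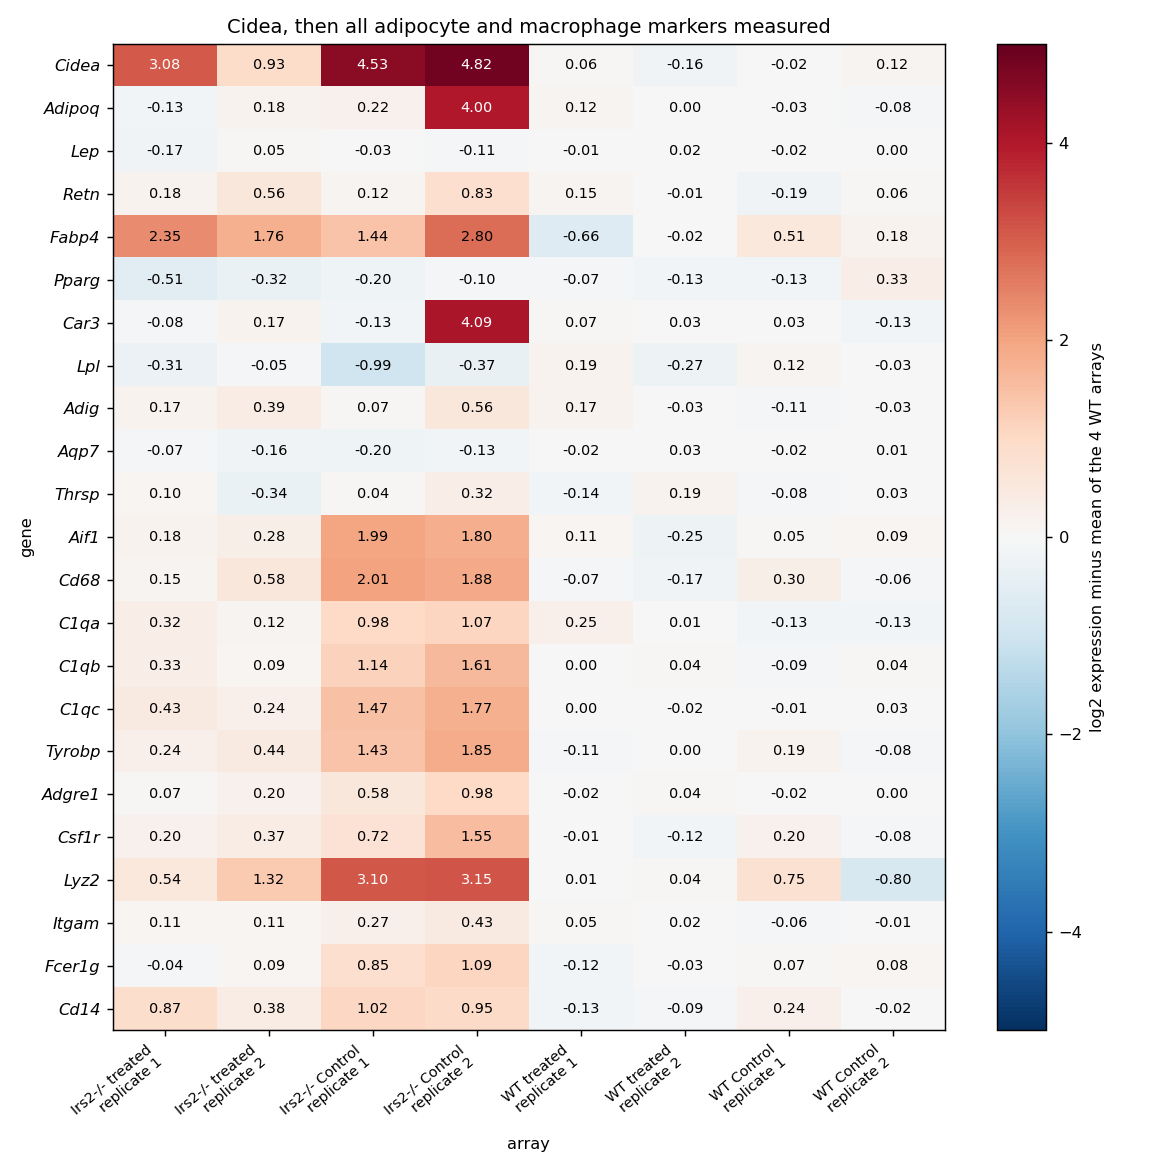
Log2 expression of Cidea (top row), the 10 adipocyte markers (Adipoq to Thrsp) and the 12 macrophage markers (Aif1 to Cd14) on each array, as the difference from the mean of the 4 WT arrays (colour and number). Fabp4 is raised on all 4 Irs2-/- arrays, Adipoq and Car3 reach 4.00 and 4.09 on Irs2-/- Control replicate 2, and all 12 macrophage markers are above the WT arrays on both Irs2-/- Control arrays.

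The 5 tested genes whose pattern over the 8 arrays was most like that of Cidea were Sgk2, a kinase gene (Pearson's r = 0.998), Hsd3b7, an enzyme of bile acid synthesis (0.997), the sorting receptor gene Sorcs1 (0.995), the tubulin gene Tuba4a (0.994) and the phospholipase gene Pla2g12a (0.993). The arrays fall into groups and share their normalization, so r is given as a measure of likeness only. Sorcs1 was the one of comparable size, at 6.58 and 5.05 on the Irs2-/- treated and 8.45 and 8.65 on the Irs2-/- Control arrays, against 4.24 and 3.86 on the WT treated and 4.37 and 4.29 on the WT Control arrays. The genes most like the other members had r of 0.977 (Bloc1s2 with Plin2), 0.994 (S100a16 with Plin3), 0.973 (Mien1 with Plin4), 0.903 (B230217O12Rik with Pnpla2) and 0.986 (Lrch2 with G0s2). Between members, r with Cidea was 0.76 for Plin3, 0.68 for Plin2, 0.67 for G0s2, 0.60 for Plin4 and 0.09 for Pnpla2.

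**Figure D4:**
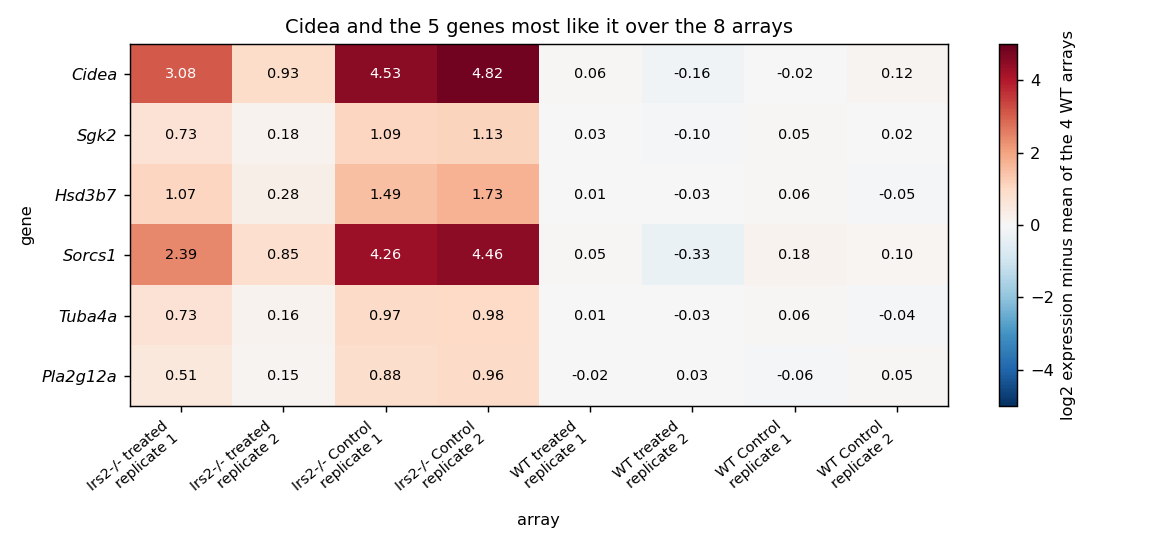
Cidea and the 5 tested genes with the highest Pearson's r with it over 8 arrays, each as the log2 difference from the mean of the 4 WT arrays (colour and number). All 6 are highest on the Irs2-/- Control arrays, and on Irs2-/- treated replicate 1 stand above replicate 2 (3.08 against 0.93 for Cidea).

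Other genes of droplet metabolism were counted in 6 lists, to be read against the 8.27% of all tested genes that were higher and the 8.52% that were lower in untreated Irs2-/- islets. In the lipolysis list, 2 of 8 tested genes rose and 1 fell in untreated Irs2-/- islets (median 0.09, against -0.01 over all tested genes). Lipa, the acid lipase of lysosomes, read 7.64 and 7.82 on the Irs2-/- Control and 6.86 on both WT Control arrays (0.86 ± 0.11, limma adjusted p = 0.00425). Mgll, which frees the last fatty acid, rose by 0.53 ± 0.12 on plain water (limma adjusted p = 0.0268) and by 0.79 ± 0.12 under tungstate (limma adjusted p = 0.0384), the 1 gene of these 6 lists that passed under tungstate. Abhd5, the co-activator of ATGL, read 6.76 on both Irs2-/- Control arrays, against 7.53 and 7.33 on the WT Control arrays (-0.66 ± 0.11, limma adjusted p = 0.00988). Under tungstate it read 6.85 and 6.87 in Irs2-/- treated and 7.46 and 7.45 in WT treated islets (-0.59 ± 0.11, limma adjusted p = 0.0585). Lipe, the hormone-sensitive lipase, did not pass (0.39 ± 0.12 on plain water, limma adjusted p = 0.0621). Other probe sets of Abhd5 moved less: their mean with this one differed by -0.29 on plain water (limma adjusted p = 0.0944).

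Fatty acid uptake and binding had 3 of 9 tested genes up and 1 down in untreated Irs2-/- islets (median 0.02). The binding protein gene Fabp5 read 9.35 and 8.34 on the Irs2-/- treated and 10.50 and 10.01 on the Irs2-/- Control arrays, against 7.81 and 7.31 on the WT treated and 7.90 and 7.50 on the WT Control arrays. Its untreated genotype difference was 2.55 ± 0.34 (limma adjusted p = 0.00436) and its treated one 1.29 ± 0.34 (limma adjusted p = 0.114). Fabp4, a binding protein of fat cells, macrophages and capillaries, rose by 1.78 ± 0.43 on plain water (limma adjusted p = 0.0297) and differed by 2.39 ± 0.43 under tungstate (limma adjusted p = 0.0506). The uptake receptor gene Cd36 rose by 1.28 ± 0.31 (limma adjusted p = 0.0308), and the muscle-type Fabp3 fell by 0.98 ± 0.24 (limma adjusted p = 0.0317). Fabp4 and Cd36 were highest on Irs2-/- Control replicate 2, at 9.99 and 7.60. With 1 array left out in turn, the untreated difference ranged from 1.1 to 2.46 for Fabp4 and from 0.84 to 1.71 for Cd36. Under tungstate, without that array, Cd36 read 7.07 and 6.91 on the Irs2-/- treated and 5.47 and 5.51 on the WT treated arrays. That difference did not pass limma's test.

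In triglyceride synthesis 1 of 14 tested genes rose and 2 fell in untreated Irs2-/- islets (median 0.13), beside 8.27% and 8.52% of all tested genes. Gpat3 and Mogat1 were below the filter and not tested. Gpat3 read 5.33 and 4.98 on the Irs2-/- treated and 5.80 and 5.73 on the Irs2-/- Control arrays. On the WT treated arrays it read 4.36 and 4.44, and on the WT Control arrays 4.55 and 4.46. Mogat1 read 4.82 to 5.18 on all arrays. Lpin2, a phosphatidate phosphatase, rose by 0.85 ± 0.16 (limma adjusted p = 0.0141), and the acyl-CoA synthetase genes Acsl3 and Acsl4 fell by 0.71 ± 0.14 and 0.39 ± 0.11 (limma adjusted p = 0.0142 and 0.0415). Of the genes of droplet biogenesis and surface, 2 of 12 rose: Bscl2, which encodes seipin of droplet budding sites (0.57 ± 0.13, limma adjusted p = 0.0239), and Hsd17b11, a droplet-bound dehydrogenase (0.59 ± 0.13, limma adjusted p = 0.0208). The median of that list was 0.22. The droplet and membrane gene Cav1 did not pass in either genotype comparison (0.97 ± 0.20 under tungstate and 0.62 ± 0.20 on plain water, limma adjusted p = 0.0661 and 0.0672).

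Of 15 PPAR and lipid transcription factor genes, 2 fell and 0 rose in untreated Irs2-/- islets (median 0.05). They were Srebf1, the factor of fatty acid synthesis (-0.68 ± 0.14, limma adjusted p = 0.0175), and Mlxipl, which encodes the glucose-responsive factor ChREBP (-0.79 ± 0.18, limma adjusted p = 0.0228). Among 7 tested PPAR target genes 2 rose, Cpt1a, the gate of fatty acids into mitochondria (0.88 ± 0.17, limma adjusted p = 0.0143), and Angptl4, an inhibitor of lipoprotein lipase (0.91 ± 0.26, limma adjusted p = 0.0488). Pdk4, which restrains pyruvate oxidation, fell by 0.91 ± 0.25 (limma adjusted p = 0.0467), and the median was 0.12. With any 1 array left out, 2 of the 17 genes past the test in untreated islets still passed each time, Fabp5 and Lipa, and the other 15 did not. Of the 18 calls in both genotype comparisons, 10 and 14 were lost without WT Control replicates 1 and 2, 11 and 8 without Irs2-/- Control replicates 1 and 2, 7 without either WT treated array, and 2 and 1 without Irs2-/- treated replicates 1 and 2. A fit of the compared arrays alone lost 9, and leaving out WT Control replicate 1 and Irs2-/- Control replicate 2 together lost 12, Lipa among them. When all single-gene probe sets were averaged per gene, an alternative chosen for these genes after seeing the data, 8 calls were lost: Abhd5, Acsl3, Acsl4, Fabp3, Hsd17b11, Lpin2, Pdk4 and, under tungstate, Mgll (0.46, limma adjusted p = 0.0825). Tungstate moved 0 genes of these 6 lists past limma's test in either genotype.

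**Figure D5:**
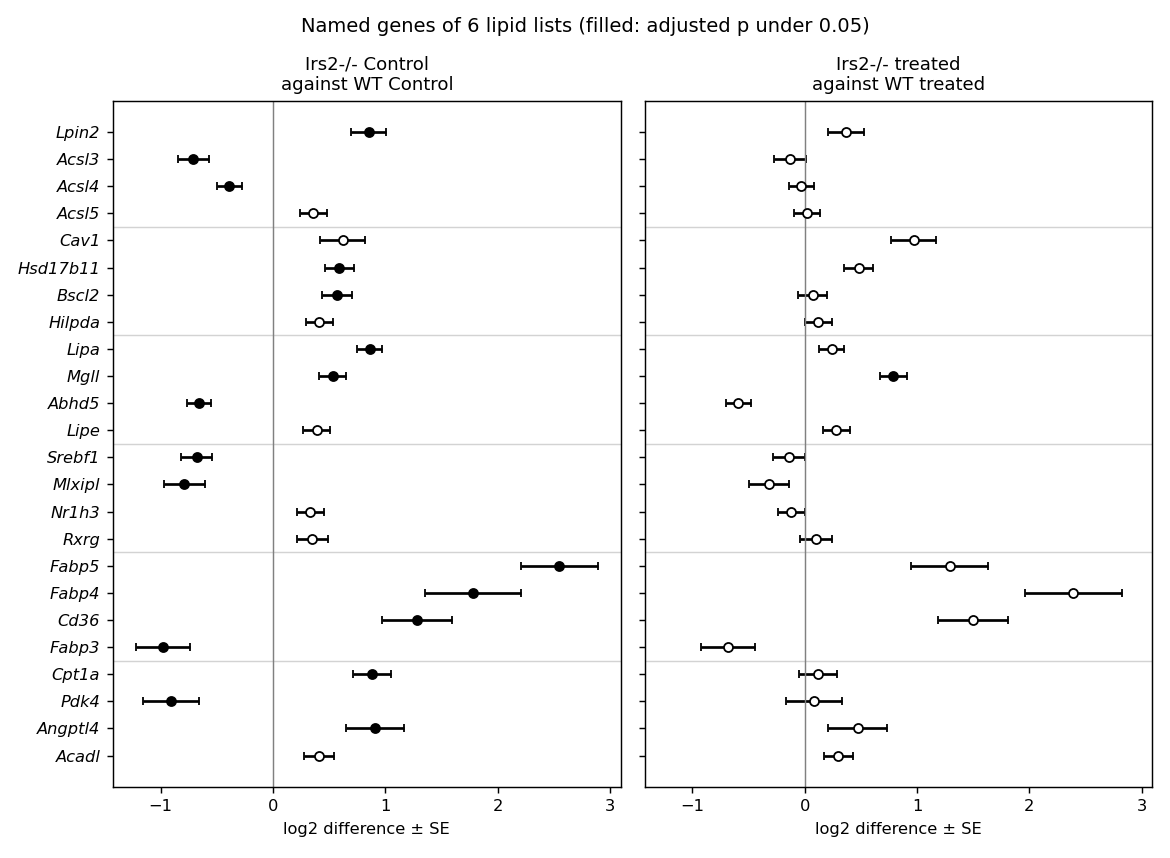
Log2 differences (points) with the SE of limma's fit (bars) for 24 genes, the 4 with the smallest unadjusted p in each of 6 lipid lists (grey lines part the lists), Irs2-/- minus WT on plain water and under tungstate. Filled points passed at an adjusted p under 0.05: 17 on plain water and Mgll alone under tungstate.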

How the data were processed

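RNA from pancreatic islets was measured on 8 Affymetrix oligonucleotide arrays, 2 in each of 4 groups, taken from the sample titles. Per the submitters' processing notes, the authors ran RMA (affy, R 2.7.0), and what they deposited is on a log2 scale, 1 value per probe set and array. RMA aligns the arrays' distributions, so a change shared by most genes would not show, and low values are compressed. Probe sets were named through the platform annotation, in which 34945 of 45037 carry 1 gene, 932 more than 1 and 9160 no gene; RefSeq gene numbers matched 34741. All value columns were used, and no arrays were identical.

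The 4 group means were fitted in limma 3.58.1 (R 4.3.3) on 13369 genes with empirical Bayes moderation (4 residual and 3.89 prior degrees of freedom). Benjamini-Hochberg adjustment ran over all tested genes within each of 5 comparisons, at a threshold of 0.05. With 2 arrays a group, the typical (median) SE of a log2 difference was 0.14, and the small number of arrays limits precision. The workflow was tested on simulated data.

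The members, the lists and the tests were chosen with earlier results of these data known. The rule for naming genes took all 9 members, up to 4 genes of each of 6 pathway lists by smallest unadjusted p, and the genes with the highest Pearson's r with a member. Marker lists were written by hand. Alternatives were other filters, a variance trend, fewer arrays, a replicate block, other scalings and other probe sets.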

Additional observations from a re-analysis of the deposited data

How the results depend on the processing

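The untreated Cidea difference, by which the gene was chosen, is a description. It was 4.62 ± 0.54 with the replicate number as a block and, an alternative chosen after seeing the data, 4.41 with WT Control replicate 1 and Irs2-/- Control replicate 2 left out together. No other member passed limma's test in any comparison under any alternative run. With 1 array left out in turn, whether Cidea passed for Irs2-/- treated against WT treated depended on the array left out. The same held for tungstate in Irs2-/- islets and for the difference between tungstate differences. Nothing is read from these calls. Cidea passed the filter only through its Irs2-/- readings, and the latter comparisons also use arrays it was chosen on. Leaving out 1 array leaves a single array in its group, which is assumed to vary like the others.

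Of 504 alternative values of the members, 25 turned sign, all from a main size of at most 0.15. Median centring gave 0 for G0s2 (tungstate, Irs2-/-) and -0.02 for Plin2 (tungstate, WT). For Pnpla2, the mean of its probe sets gave -0.02 (untreated genotypes) and 0.02 (tungstate, Irs2-/-), quantile normalization 0.01 (tungstate, Irs2-/-), and its other probe set -0.08, 0.10 and, for the difference between tungstate differences, 0.07. With both named arrays left out Plin4 gave 0.07 (tungstate, Irs2-/-) and 0.05 (difference between tungstate differences), and Pnpla2 -0.01 (untreated genotypes). The cause was not tested.

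With 1 array left out in turn, these small differences crossed 0. For tungstate in WT islets Cidea ranged from -0.21 to 0.01, Plin2 from -0.28 to 0.29 and Plin4 from -0.10 to 0.29. For tungstate in Irs2-/- islets G0s2 ranged from -0.19 to 0.27, Plin3 from -0.02 to 0.16 and Plin4 from -0.19 to 0.07. For Irs2-/- treated against WT treated Plin2 ranged from -0.10 to 0.25 and Plin4 from -0.07 to 0.32. The difference between tungstate differences ranged from -0.35 to 0.04 for Plin4, and the untreated genotype difference from -0.01 to 0.10 for Pnpla2. The replicate block changed no member's call. The labels give the replicate numbers no shared batch, and with 2 numbers a group the correlation of the groups' replicate differences was between -0.07 and 0.42.

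Over all tested genes 2245 passed for the untreated genotypes, between 652 and 2639 with 1 array left out, 1529 in a fit of the compared arrays alone and 964 with both named arrays left out. For the treated genotypes 137 passed, between 3 and 679 with 1 array left out, 77 with averaged probe sets and 224 with a variance trend. For tungstate in Irs2-/- islets 66 passed, between 16 and 265 with 1 array left out, 19 in a fit of the compared arrays, 34 under the stricter filter and 399 with both named arrays left out. For the difference between tungstate differences 3 passed, between 0 and 12 with 1 array left out and 107 with both named arrays left out. For tungstate in WT islets 0 passed, and 9 without WT Control replicate 2.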
